A study of Rattus norvegicus with 6 samples.

Results

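The bile duct and progenitor cell genes described here are 9 genes named by symbol: Krt19, Krt7, Epcam, Sox9, Cd24, Cftr, Cldn4, Elf3 and Aqp1. They were taken by name and not by a cut on their values, beside 15645 gene symbols that could be matched to the array. Earlier results of these data were known when they were chosen. Of the 9, 8 matched at least 1 probe, with 13 probes in all, and Sox9 matched none and is not analysed here. The study took livers from 6 male rats of the outbred Sprague-Dawley stock, bought at 5 weeks of age, and put their RNA on single-colour Agilent arrays. The CCl4 group of 3 rats had received 100 mg/kg/day of the solvent carbon tetrachloride, and the other 3 rats had received corn oil. Each rat gave 1 array, and the whole liver was the labelled tissue, so every cell type present contributed RNA. The labels give 9 weeks of dosing in the treatment protocol and 28 days in the series design, and the files do not settle which applies.

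Bile ducts are lined by cholangiocytes, epithelial cells that share an embryonic origin with hepatocytes but carry their own keratins, junction proteins and ion channels. In chronic liver injury, duct-like cells that express these genes can multiply around the portal tracts, a pattern known as the ductular reaction, and such cells are also described as liver progenitors. CCl4 is converted to reactive products by the cytochrome P450 enzyme CYP2E1, which is concentrated around the central veins, and repeated dosing of rodents with it serves as a model of hepatic damage and scarring. Comparing CCl4 with corn oil for these genes asks whether duct and progenitor transcripts were more or less abundant in the injured livers.

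None of the 8 measured genes passed the test. By limma over 11939 genes, 0 of 8 reached an adjusted p below 0.05, where 0.637% of all genes tested did, and 1 of 8 had an unadjusted p below 0.05, where 19.7% of all genes did. Of the changes 4 were positive and 4 negative, where 42.8% of all genes were positive, and their median was -0.074 on the log2 scale beside -0.048 over all genes tested. The keratins of the duct lining, Krt19 and Krt7, were at 1.13-fold lower and 1.01-fold higher in CCl4 livers, neither beyond the spread between rats. Epcam, the adhesion molecule of duct and progenitor cells, lay furthest from no change at 1.44-fold higher, without passing. The 95% interval of the change lay within 2-fold in both directions for 7 of the 8 genes, and for 80.3% of all genes tested. The exception was Cftr.

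Values below are log2 of the background-subtracted signal minus the 75th percentile of the same array, so that 0 is the brightness that 75% of probes fall under. The percentile itself was 582.6 to 675.6 signal units per array. Of the probes on each array, 61.9% to 64.7% were well above background in CCl4 livers and 65.0% to 67.3% in corn oil livers. The dimmest signal called well above background was 16.4 to 18.5 units on the CCl4 arrays and 11.8 to 14.0 units on the corn oil arrays. Brightness differs between probes for technical reasons, so the levels of different genes are not set against each other. Slide and group were partly confounded: CCl4 replicate 1 shared a slide with all 3 corn oil livers, whereas CCl4 replicates 2 and 3 were on another one, which was scanned on a different day. The hepatocyte markers fixed for comparison were well above background on all 6 arrays for 14 of 14 genes. In whole tissue, fewer cells of a type and less RNA per cell cannot be told apart.

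Krt19 encodes a small intermediate filament protein that marks cholangiocytes and is not made by mature hepatocytes. In CCl4 livers its values were -2.15, -2.31 and -1.85, and in corn oil livers -1.99, -2.05 and -1.75. The groups overlapped, since CCl4 replicate 3 was brighter than both corn oil replicates 1 and 2. The change was -0.17 ± 0.16 (SE, n = 3 arrays per group), with a 95% interval of -0.55 to 0.21 and an adjusted p of 0.565 by limma. Leaving out CCl4 replicate 2 gave -0.070, leaving out CCl4 replicate 3 gave -0.30, and leaving out corn oil replicate 3 gave -0.081. The upper end of the interval corresponds to 1.15-fold and the lower end to 0.682-fold. The signal was 132 to 185 units on the 6 arrays, well over the dimmest signals called above background.

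Krt7, the type II keratin that pairs with Krt19 in duct epithelium, read -3.89, -4.30 and -4.35 in CCl4 livers and -3.96, -4.59 and -4.02 in corn oil livers. The groups overlapped in part: CCl4 replicate 1 was the brightest liver and corn oil replicate 2 the dimmest, while corn oil replicates 1 and 3 were brighter than CCl4 replicates 2 and 3. The means were -4.18 ± 0.25 in CCl4 and -4.19 ± 0.35 in corn oil (SD, n = 3 each), a difference of 0.0079 with an interval of -0.51 to 0.53 (adjusted p = 0.988 by limma). Its probe was dim, at 24.7 to 39.5 units. The sign of so small a difference turned under 6 of the 18 alternative settings.

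**Figure D1:**
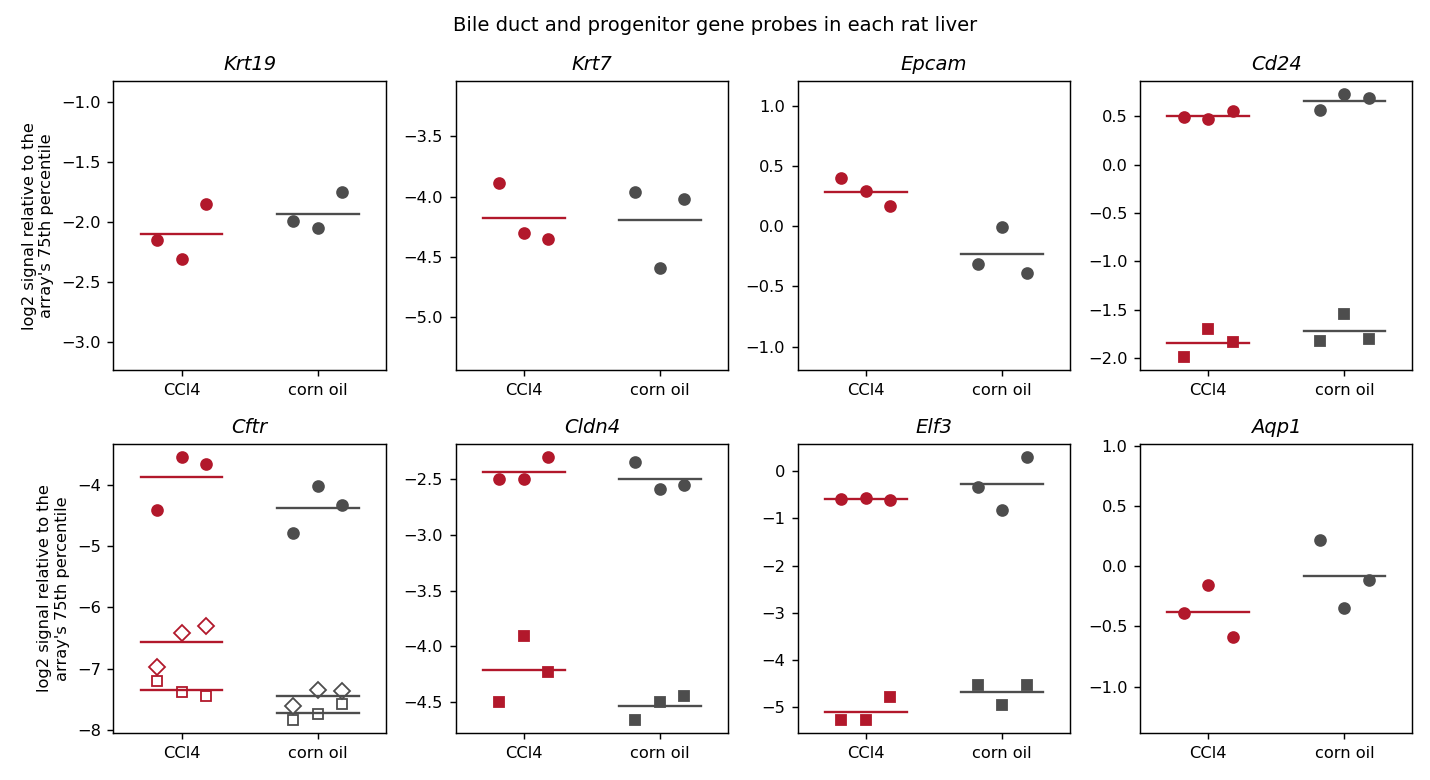
Log2 signal relative to the 75th percentile of each array for every probe of the 8 measured genes, with CCl4 livers (red) left of corn oil livers (grey), 1 point per rat and a line at each group mean. Circles are the probe that stands for the gene, squares and diamonds its other probes, open symbols are probes not well above background on any array, and the vertical scale differs between panels. All 3 Epcam values in CCl4 livers lie above all 3 in corn oil livers, and the groups overlap for Krt19, Krt7, Cldn4, Elf3 and Aqp1.

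Epcam encodes a homophilic adhesion protein found on cholangiocytes and on fetal and progenitor liver epithelium. Its values were 0.40, 0.29 and 0.17 in CCl4 livers and -0.31, -0.0026 and -0.39 in corn oil livers. Every CCl4 liver was above every corn oil liver, with a gap of 0.173 between the dimmest CCl4 and the brightest corn oil array. The change was 0.52 ± 0.14, with an interval of 0.19 to 0.86. That is 1.44-fold, with ends at 1.14-fold and 1.81-fold. The unadjusted p was 0.00865 and the adjusted p 0.127 by limma, and 809 of the 11939 genes had a smaller p. On the first slide alone the CCl4 liver was 0.64 above the corn oil mean, a comparison of 1 liver with 3 in which 0 of 11939 genes passed by limma (1598 at an unadjusted p below 0.05). Across the alternative settings the change was 0.44 to 0.64, and the adjusted p was lowest under normexp, at 0.0756.

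Cd24 encodes a small glycosylated surface protein of ductular and progenitor cells that B cells, neutrophils and immature red cells also carry. Its main probe read 0.49, 0.47 and 0.56 in CCl4 livers against 0.57, 0.73 and 0.69 in corn oil livers. These groups did not overlap either, with CCl4 lower, but the gap was only 0.011. The change was -0.16 ± 0.097 (interval -0.39 to 0.079, adjusted p = 0.411 by limma). A second probe, at -1.99, -1.70 and -1.83 in CCl4 and -1.82, -1.54 and -1.80 in corn oil, gave -0.12 with overlapping groups (adjusted p = 0.693 over 40478 probes). Non-overlap was seen in 2 of 8 members and in 27.4% of all genes tested, so a share of that size is the background of this comparison.

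Cftr encodes the chloride and bicarbonate channel of the cholangiocyte apical membrane, whose opening by secretin alkalinises bile. One of its 3 probes was well above background on all 6 arrays, at -4.41, -3.55 and -3.67 in CCl4 livers and -4.79, -4.02 and -4.34 in corn oil livers. CCl4 replicates 2 and 3 were above every corn oil value, and CCl4 replicate 1 was below corn oil replicates 2 and 3. The change was 0.50 ± 0.29 with the widest interval of the set, -0.20 to 1.20 (adjusted p = 0.375 by limma). The higher values followed the slide: CCl4 replicate 1, on the same slide as the corn oil arrays, was -0.026 from the corn oil mean, and the 2 arrays of the second slide were 0.83 and 0.71 above it. A fixed slide block gives that same -0.026, since the second slide held no corn oil liver and CCl4 replicate 1 is then the only liver compared, and a random slide block gave 0.53. With an array left out the change was 0.30 (without corn oil replicate 1) to 0.77 (without CCl4 replicate 1), and it was 0.34 without CCl4 replicate 2, with adjusted p-values of 0.234 to 0.685. The part of the slide in the pooled value was not tested. The signal was 21.7 to 57.5 units, close to the dimmest signals called above background, and normexp background correction reduced the change to 0.23. The remaining 2 probes were not well above background on any array, at 2.63 to 8.48 units, and give no fold.

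Cldn4 encodes a claudin, a sealing protein of epithelial tight junctions. Its main probe read -2.50, -2.50 and -2.30 in CCl4 livers and -2.35, -2.59 and -2.55 in corn oil livers. The groups overlapped within a range of 0.29 over the 6 arrays. The change was 0.065 ± 0.12 (interval -0.22 to 0.35, adjusted p = 0.790 by limma), which places the upper end at 1.27-fold. Its second probe read -4.50, -3.91 and -4.23 in CCl4 and -4.66, -4.50 and -4.45 in corn oil, a change of 0.33 (adjusted p = 0.403 over all probes). As with Cftr, CCl4 replicate 1 was only 0.041 from the corn oil mean on that probe, and the second-slide arrays were 0.63 and 0.31 above it.

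Elf3, an ETS-family transcription factor of epithelial cells, was the member with the most uneven corn oil livers. It read -0.59, -0.58 and -0.62 in CCl4 livers and -0.33, -0.82 and 0.30 in corn oil livers. The 3 CCl4 values were nearly equal (SD 0.018) and lay inside the corn oil range, whose SD was 0.56. The change was -0.31 ± 0.27 (interval -0.97 to 0.34, adjusted p = 0.547 by limma). Its size depended on single vehicle livers, being -0.022 with corn oil replicate 3 left out and -0.58 with corn oil replicate 2 left out. A second probe was well above background on 1 of 3 CCl4 arrays and 3 of 3 corn oil arrays, at 15.2, 17.7 and 24.3 units in CCl4 and 26.0, 19.3 and 25.1 units in corn oil. Its change of -0.43 (adjusted p = 0.337 over all probes) therefore rests in part on signals not told apart from background.

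Aqp1, the water channel through which cholangiocytes move water into bile, is also made by endothelium and red cells. It read -0.39, -0.16 and -0.59 in CCl4 livers and 0.22, -0.35 and -0.12 in corn oil livers. The groups overlapped, with corn oil replicate 1 above the other 5 livers. The change was -0.30 ± 0.19 (interval -0.75 to 0.15, adjusted p = 0.412 by limma), and it was -0.15 without corn oil replicate 1. The endothelial list fixed for comparison had 0 of 11 tested genes past the threshold and a median change of 0.046. Its summed signal was 49.0 to 60.8 times the 75th percentile in CCl4 livers and 57.5 to 67.9 in corn oil livers. Such a sum follows its brightest genes, here above all Kdr, at -0.38 ± 0.12 (adjusted p = 0.171 by limma). Of the 11 endothelial genes 7 were higher in CCl4, where 42.8% of all genes were. The erythroid list had 0 of 6 past the threshold, with sums of 118 to 348 in CCl4 and 197 to 305 in corn oil. The part of endothelial or red cell RNA in the Aqp1 values was not tested.

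**Figure D2:**
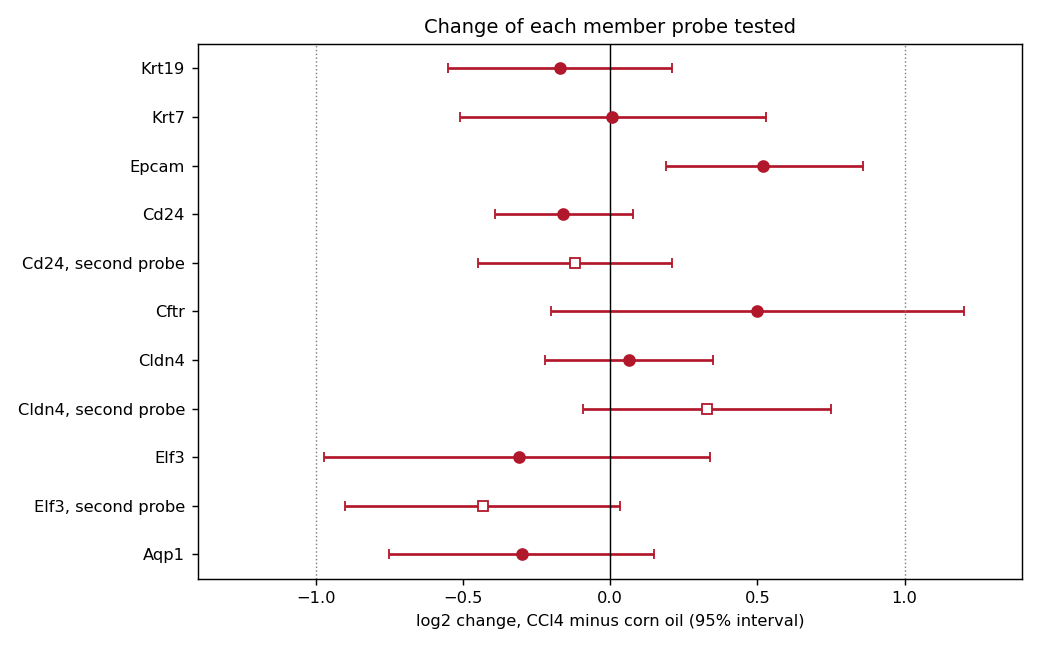
Log2 change, CCl4 minus corn oil, of each member probe tested, with 95% intervals from limma (3 arrays per group). Filled circles are from the fit of genes, open squares are second probes from the fit of probes, and dotted lines mark 2-fold. The Epcam interval (0.19 to 0.86) alone excludes 0, and the Cftr interval alone crosses a 2-fold line.

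The genes with more than 1 tested probe were Cd24, Cldn4 and Elf3. Over the 11 member probes tested, 0 passed in a fit of all 40478 probes, where 0.341% did, with adjusted p-values of 0.184 to 0.989. At an unadjusted p below 0.05 there was 1, the Epcam probe, beside 16.0% of all probes.

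No single liver showed all members shifted together. Relative to the corn oil mean, 3, 2 and 4 of the 8 members were higher in CCl4 replicates 1, 2 and 3, and the median deviation of the 8 was -0.10, -0.097 and -0.0096. In corn oil replicates 1, 2 and 3 the numbers were 3, 3 and 5, with medians of -0.054, -0.11 and 0.035. The highest member was Epcam in CCl4 replicate 1 and Cftr in CCl4 replicates 2 and 3. The lowest was Aqp1 in CCl4 replicates 1 and 3 and Krt19 in CCl4 replicate 2. The spread between rats within a group was smallest for Cd24 (pooled SD 0.066) and largest for Cftr (0.43) and Elf3 (0.39), beside a median of 0.19 over all genes tested.

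**Figure D3:**
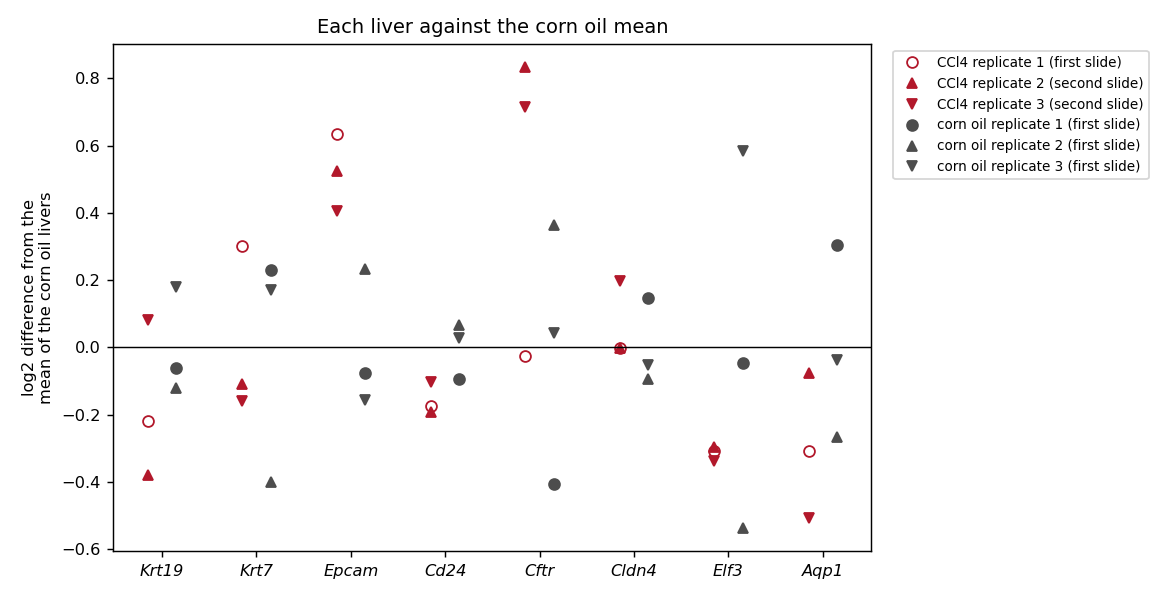
Each liver's log2 difference from the mean of the 3 corn oil livers, for the probe that stands for each gene. Red symbols are CCl4 livers, the open circle being the one on the same slide as the corn oil arrays, and grey symbols are corn oil livers. For Cftr the open circle lies at -0.026 while both CCl4 livers of the second slide lie at 0.71 and 0.83, and for Epcam all 3 CCl4 livers are at 0.41 to 0.64.

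The members with the widest range over the 6 arrays were Cftr (1.23) and Elf3 (1.11), and the genes most like each were found by the root mean square difference after centring each gene, among 11101 genes above background throughout. Closest to Cftr were Pofut1 (0.127), Sts (0.134) and Igh-6l1 (0.138). Pofut1 encodes a fucosyltransferase and read -2.23, -1.27 and -1.70 in CCl4 livers and -2.68, -1.78 and -2.40 in corn oil livers. Closest to Elf3 were Arrdc3 (0.0834), Pgap4 (0.10) and Or1j16 (0.108). Arrdc3, an arrestin-domain adaptor, shared the high value of corn oil replicate 3, at 0.98 against 0.22 and -0.038 in the other corn oil livers. With 6 arrays and this many genes, such matches describe these arrays only.

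A wider list of 44 other bile duct and progenitor genes was then set beside the 9. Of 31 that could be tested, 0 passed by limma, where 0.637% of all genes did. In CCl4 18 were higher and 13 lower, where 42.8% of all genes were higher. The median change was 0.14, beside -0.048 over all genes. The count past the threshold was 1 under normexp, with a variance trend and without CCl4 replicate 3. At an unadjusted p below 0.05 there were 9, a share of 29.0% beside 19.7% of all genes. Of the 31 tested, 8 were both below 0.05 and higher in CCl4, where 9.95% of all genes tested were. The median of this list ran from 0.038 (with a gene's probes averaged) to 0.39 (with slide as a fixed block) across the alternative settings. The 3 with the smallest p were Krt8, Ncam1 and St14. Krt8, a keratin that hepatocytes and ducts share, read 2.90, 3.22 and 2.86 in CCl4 livers and 2.23, 2.32 and 1.99 in corn oil livers (0.81 ± 0.15, adjusted p = 0.0725). Its groups did not overlap, and it is no marker of ducts alone. St14, the membrane protease matriptase, was at 0.68 ± 0.14 (adjusted p = 0.0833), with a second probe at 0.18. Ncam1, an adhesion molecule described on reactive ductules and also on stellate and neural cells, was well above background on 3 CCl4 arrays and 0 corn oil arrays. It was at least 2.20-fold higher by the bound that background allows (means of -4.39 in CCl4 and -6.02 in corn oil), which sets the CCl4 mean against, per corn oil array, the higher of the probe's own signal and the dimmest signal called well above background. Since Ncam1 was tested only because of its CCl4 arrays, its adjusted p of 0.0822 by limma is no support for a difference. Nor is its place in the count of 9 or among the 18 higher genes.

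Over the 31 genes the changes ran from -1.27 to 1.63. The other genes at an unadjusted p below 0.05, chosen after their values were seen, had adjusted p-values of 0.0908 to 0.242 by limma. Of these Fgfr2, a fibroblast growth factor receptor, was at 0.79 ± 0.19. Its 6 tested probes disagreed, running from -0.6 to 0.96, with 4 of the 6 higher. Ano1, a calcium-activated chloride channel, was at 0.86 ± 0.21, and Slc10a2, the apical bile acid transporter, at 0.78 ± 0.28. Anxa4, an annexin, was at 0.35 ± 0.14, and Cdh1, the epithelial cadherin that hepatocytes also make, at -0.41 ± 0.15. Mmp7, a matrix protease, was at 0.92 ± 0.20 but well above background on only 2 CCl4 arrays and 1 corn oil array. Its change therefore rests in part on signals not told apart from background. It met the filter only with its CCl4 arrays, so its p and its place in the counts of this list are no support for a difference.

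Notch signalling directs duct fate in the developing liver. Of 11 tested Notch pathway genes 0 passed by limma, 3 were higher and 8 lower, where 42.8% of all genes were higher, and the median was -0.14. There were 3 at an unadjusted p below 0.05, or 27.3%, beside 19.7% of all genes. Across the alternative settings the median of this list ran from -0.091 (without CCl4 replicate 1) to -0.50 (with slide as a fixed block). The fixed block compares CCl4 replicate 1 alone with corn oil. With slide as a random block the median was -0.13. Jag1, a Notch ligand whose mutation in humans causes Alagille syndrome, with too few bile ducts, read -2.19, -2.42 and -2.29 in CCl4 livers and -1.83, -1.12 and -1.20 in corn oil livers. These groups did not overlap, and the change was -0.91 ± 0.20 (adjusted p = 0.0956). Hes5, a Notch target, was well above background on 0 CCl4 arrays and 3 corn oil arrays and was at least 1.63-fold lower (means of -5.35 in CCl4 and -4.46 in corn oil). Hes5 was tested only because of its corn oil arrays, so its adjusted p of 0.113 by limma is no support for a difference. Nor is its place among the 8 lower genes and the 3 at an unadjusted p below 0.05. Notch3, a receptor of vascular smooth muscle and pericytes, was at 0.46 ± 0.19 (adjusted p = 0.248), with a second probe at -0.20. Hes1, another Notch target, chosen after its values were seen, was at -0.11 ± 0.54.

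Of 12 tested genes of YAP and TWEAK signalling, which act on progenitor growth, 1 passed by limma (all genes 0.637%) and 10 were higher (all genes 42.8%), with a median of 0.33. At an unadjusted p below 0.05 there were 4, or 33.3%, beside 19.7% of all genes. The gene that passed was Birc5, an apoptosis inhibitor that also serves cell division, at 0.93 ± 0.13 (adjusted p = 0.0462 by limma). The list's count was 0 with slide as a fixed block, with the replicate number as a block and without the filter. It was also 0 when any array other than CCl4 replicate 3 was left out. It was 1 with slide as a random block and 2 under normexp. The median of the 12 was 0.14 under the fixed block, which sets CCl4 replicate 1 alone against corn oil. Ccn1, a secreted matrix protein and YAP target, was at 0.68 ± 0.13 (adjusted p = 0.0763), and Ankrd1, another, at 0.60 ± 0.16 (adjusted p = 0.128). Tnfrsf12a, the TWEAK receptor, chosen after its values were seen, read 1.71, 1.63 and 1.01 in CCl4 livers and 0.14, 0.63 and 0.99 in corn oil livers (0.87 ± 0.28, adjusted p = 0.178). Cell division genes passed in 3 of 10 tested, Rrm2, Ccna2 and Aurka, with 10 of 10 higher and a median of 1.36. That count was 0 to 4 with an array left out (0 without CCl4 replicate 2 and 0 without corn oil replicate 3, 1 without CCl4 replicate 1). It was 1 with slide as a fixed block, 5 with slide as a random block, 0 with the replicate number as a block and 7 under normexp.

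**Figure D4:**
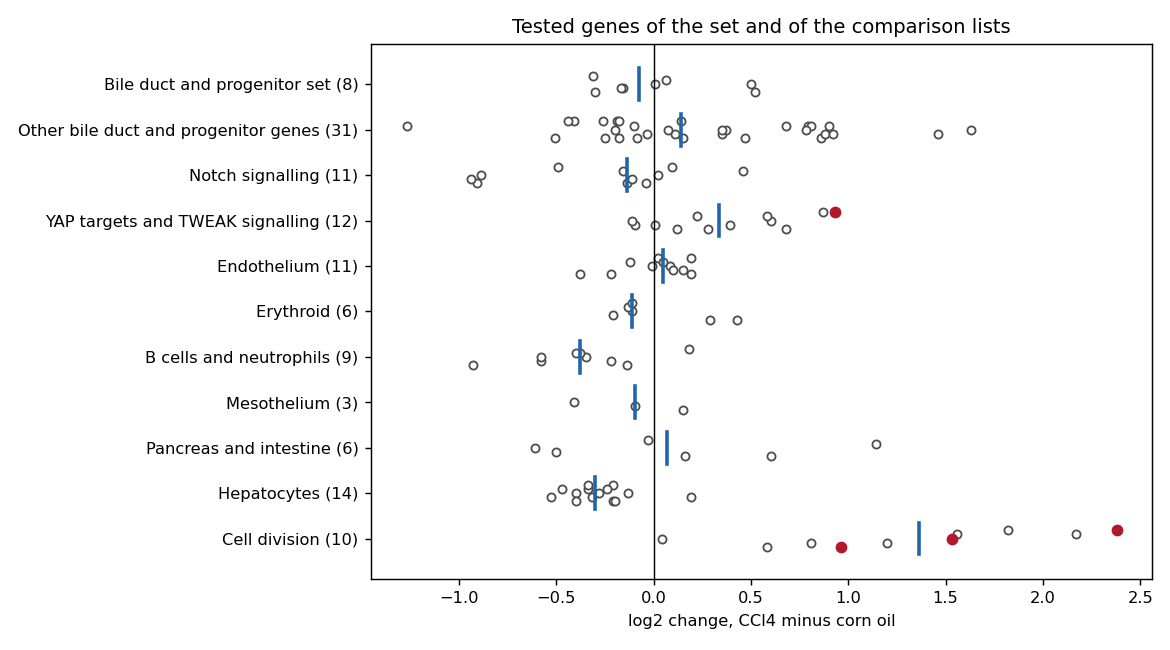
Log2 change, CCl4 minus corn oil, of every tested gene of the bile duct and progenitor set and of 10 comparison lists, with the number tested in brackets. Filled red points passed at an adjusted p below 0.05 (limma over 11939 genes), open points did not, and blue bars are medians. The 8 members lie between -0.31 and 0.52, the hepatocyte list has a median of -0.30 and the cell division list one of 1.36.

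Other cell types that could carry these transcripts gave the following values. Hepatocyte markers were lower in CCl4 for 13 of 14 genes (median -0.30), with 0 past the threshold and 8 lower with groups that did not overlap, where 15.9% of all genes did so. The median was -0.14 with quantile normalization and -0.17 under normexp. Their summed signal was 5430 to 6070 times the 75th percentile in CCl4 livers and 6680 to 7130 in corn oil livers. B cell and neutrophil genes, which bear on Cd24, had 0 of 9 past the threshold and a median of -0.38, with sums of 4.31 to 6.73 in CCl4 and 6.23 to 9.59 in corn oil. Elane, also on that list, was not well above background on any array and so was not tested. Mesothelial genes, which bear on the keratins, had 0 of 3 past the threshold (median -0.097), with sums of 0.706 to 1.54 in CCl4 and 1.08 to 1.35 in corn oil. Wt1, on the same list, was not above background on any array and so was not tested. Pancreas and intestine genes, which bear on Epcam, Cftr and Cldn4, had 0 of 6 past the threshold (median 0.066), with sums of 5.84 to 14.1 in CCl4 and 2.94 to 11.9 in corn oil. The brightest of them by group mean was Cdh17, chosen after its values were seen. Cdh17 read 2.73, 3.57 and 2.05 in CCl4 livers and 3.33, 3.08 and 0.13 in corn oil livers, so these sums largely follow that gene. The pancreatic enzymes Cpa1, Prss1 and Pnlip and the intestinal gene Vil1 were not above background on any array and so were not tested. The part of these cell types in the member values was not tested.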

How the data were processed

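RNA of each of the 6 livers was put on its own single-colour array, per the labels' protocols, and each array is a separate rat. The deposited scanner files hold an intensity per spot from Agilent Feature Extraction (version 10.7.1.1 per the file headers, and 10.7 in the notes of the submitters), already background-subtracted but not scaled between arrays. The deposited value table holds a ratio, the processed signal divided by 583.3 to 676.5 per array (inferred from the values), and served as an alternative.

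Groups came from the treatment label. Of 61537 probes other than controls, 28206 matched 1 symbol through their RefSeq accession in a GRCr8 gene table, and 26 with an outlier flag were left out. The design names rn4, so no coordinates are given. Signals were log2-transformed and the array's 75th percentile subtracted. Probes well above background on at least 3 of 6 arrays were tested, the one with the highest mean standing for its gene. Testing used limma 3.58.1 in R 4.3.3, as a two-sided test at 0.05, p-values being adjusted by Benjamini and Hochberg over the whole table of genes or of probes. The script was tested on simulated data. The number of arrays limits the precision.

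The members and lists were chosen with earlier results of these data known. Named were all members and the 3 genes most like the 2 widest-ranging members. Up to 3 genes with the lowest p were named from the wider duct, Notch, YAP and TWEAK, and cell division lists. From the lists of other cell types, Kdr, the endothelial gene with the lowest p, was named. Genes of those lists that were not well above background on any array were also named. Others are said to be chosen after their values were seen. Alternatives were quantile and median scaling, normexp with an offset of 50 (on median spot signals), the authors' values, other filters, probe means, a variance trend, slide and replicate blocks, the first slide alone and leaving out each array. Python 3.11.15 and statmod 1.5.0 were also used.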

Additional observations from a re-analysis of the deposited data

How the results depend on the processing

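Under all 18 alternatives, 0 members passed by limma, with adjusted p-values of 0.0756 (Epcam under normexp) to 1.0, and under all 10 run on probes 0 member probes passed. Of 144 member values 134 kept their sign. Krt7 turned to -0.044 with quantile normalization, -0.022 with median scaling, -0.032 under normexp and -0.0076 with slide as a random block, and ran from -0.19 (corn oil replicate 2 left out) to 0.12 with an array left out, being -0.14 without CCl4 replicate 1. Cftr turned to -0.026 with slide as a fixed block and on the first slide alone, where 1 CCl4 array stands against 3. Cldn4 turned to -0.019 under normexp and ran from -0.0019 (without CCl4 replicate 3) to 0.14 with an array left out. The causes were not tested. The members' median was -0.16 to 0.0082 with an array left out.

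The background count of 76 genes was 219 under normexp, 139 with the filter on all 6 arrays, 156 with a variance trend, 4 with slide as a fixed block and 0 on the first slide alone (1598 at an unadjusted p below 0.05). It was 2 to 241 with an array left out: 6, 2 and 241 for CCl4 replicates 1, 2 and 3, and 27, 43 and 5 for corn oil replicates 1, 2 and 3. The count of 138 probes was 13 with slide as a fixed block and 2 to 256 with an array left out, lowest without CCl4 replicate 2 and highest without CCl4 replicate 3. With the replicate number as a block, 10 genes and 0 probes passed (6614 probes at an unadjusted p below 0.05). The labels do not say that a number marks a shared batch, deviations of same-numbered arrays correlated at -0.052, 0.162 and 0.019, and 3 of 6 arrays correlated best with their own number, so the numbers were not taken as pairs.

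The list counts under these settings were added after seeing the data. In the wider duct list, 6 to 10 genes had an unadjusted p below 0.05 with an array left out. The dim probes of Cftr, Krt7 and the second Cldn4 and Elf3 probes lie near background, which limits their values.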

Other observations

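In the wider duct list, 2 genes, chosen after their values were seen, were far higher in a single CCl4 liver than in any other liver. Spp1, the osteopontin gene of cholangiocytes and macrophages, read -1.02, -2.19 and 1.57 in CCl4 livers and -1.99, -2.30 and -1.75 in corn oil livers (1.46 ± 0.90, adjusted p = 0.403 by limma). Cldn7, a claudin of duct epithelium, read -2.75, -4.96 and -5.46 in CCl4 livers and -6.00, -5.01 and -4.80 in corn oil livers (0.88 ± 0.73, adjusted p = 0.530 by limma), and was well above background on 1 CCl4 and 2 corn oil arrays. The highest liver was CCl4 replicate 3 for Spp1 and CCl4 replicate 1 for Cldn7. For Spp1, CCl4 replicate 1 was also above every corn oil liver. In neither of the 2 highest livers did Krt19, at -1.85 and -2.15, lie outside the range of the other livers.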
